A study of Gallus gallus with 3 samples.

Results

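The genes described here encode the soluble machinery of protein synthesis: the factors that start and elongate polypeptide chains, the enzymes that load amino acids onto transfer RNAs (tRNAs), and a few direct regulators that share their names. They were taken by name alone. A gene belonged if its deposited name began with EIF and a digit from 1 to 6, or with EEF and 1 or 2, or consisted of a single letter followed by ARS or ARS2. The rule found 78 of 19309 genes. They fell into 9 classes: 6 start and joining factors, 10 genes of eIF2 and its exchange factor, 4 kinases of eIF2 alpha, 10 subunits of eIF3, 13 genes of the eIF4 group, 1 gene of eIF5A, 4 genes of elongation, 16 cytosolic synthetases and 14 mitochondrial ones. Synthetases were called cytosolic or mitochondrial by the name ending ARS or ARS2 alone. Whether an enzyme of the cytosolic class, such as GARS or KARS, also acts in mitochondria was not checked.

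RNA was sequenced from granulosa cells, the somatic cells that line the ovarian follicle, of laying hens (Gallus gallus). There were 3 stages with 1 library each. The 6 mm follicle had not been selected for the preovulatory hierarchy, F5 was an early and fast-growing member of it, and F1 was the follicle closest to ovulation. The labels give an age of 10 to 15 months for 6 mm, 10 to 16 months for F5 and 10 to 17 months for F1, and name no treatment. Strain and genotype, and whether several hens or follicles were pooled, are not given in the sources used here. Levels are FPKM, reads scaled by the gene's length and by the reads of the library, so that they can be compared between genes. With 1 library per stage no difference has a replicate check, and each interval in brackets is an exact 95% interval of counting error only.

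Translation starts when eIF2 brings the initiator tRNA to the small ribosomal subunit, eIF3 holds the complex together, and the cap-binding eIF4 factors recruit the messenger RNA. eIF5 and eIF5B then release the factors and join the large subunit, after which eEF1 delivers loaded tRNAs and eEF2 moves the ribosome along. In growing cells this machinery is controlled mainly at a pair of points: phosphorylation of eIF2 alpha, which slows its exchange factor eIF2B, and binding of the cap-binding protein eIF4E by 4E-binding proteins downstream of the kinase mTOR. Granulosa cells of the hierarchy grow with the follicle and turn to steroid synthesis before ovulation, and mitochondria, where that synthesis begins, translate their own messages with a largely separate set of tRNA synthetases.

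Depth was similar, at 14923359 reads in the 6 mm library, 14137511 in that of F5 and 14086626 in that of F1. Markers of granulosa cells were present in each, with a summed FPKM over 11 genes of 1927, 7846 and 8599 in the order 6 mm, F5 and F1, and no gene at 0. The markers were split, with 7 higher and 4 lower in F1 than in 6 mm. INHA, a large part of the sum, had 132, 4631 and 3013 FPKM, and AMH had 384, 18.2 and 0.779. Markers of theca and smooth muscle summed to 706, 24.6 and 18.0 over 10 measured genes. Those of endothelium summed to 75.6, 18.9 and 6.43 over 7 genes, of leukocytes to 42.7, 7.66 and 2.43 over 5, of red cells to 5.22, 0.203 and 0.0541 over 5, and of surface epithelium to 154, 28.0 and 6.09 over 5. Those of oocyte and germ cells summed to 238, 46.8 and 1.04 over 7. LUM and PDGFRA of the theca list had no reads in F5 and F1. Some genes went against their list's sum in F5, such as MSLN of surface epithelium at 0.767, 4.69 and 2.89 FPKM. CYP17A1 of the theca list, at 2.12, 3.66 and 0.173, was another. In bulk RNA, fewer cells of a type and less RNA per cell cannot be told apart, and the part of these other cells in the levels below was not tested except where a value is given.

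All 78 genes were detected in 6 mm and F5, and all but EIF4E1B in F1. Together they took 1.09% of reads in 6 mm, 1.15% in F5 and 1.22% in the F1 library. Behind these close values lay opposite courses among the members: the elongation genes went from 0.217% to 0.296% and 0.513%, and the other 74 genes from 0.875% to 0.851% and 0.702%. These shares leave out the abundant elongation factor eEF1A, which the name rule missed. Its main row had 59942 reads in 6 mm, 40417 in F5 and 85505 in F1. Unlike the share of the elongation members, its level was lower in F5 than in 6 mm. The median level of a member was 40.4 FPKM in 6 mm, 35.3 in F5 and 29.7 in F1, and the most abundant member was EIF4A2 in 6 mm, EEF2 in F5 and EEF1B2 in F1.

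**Figure D1:**
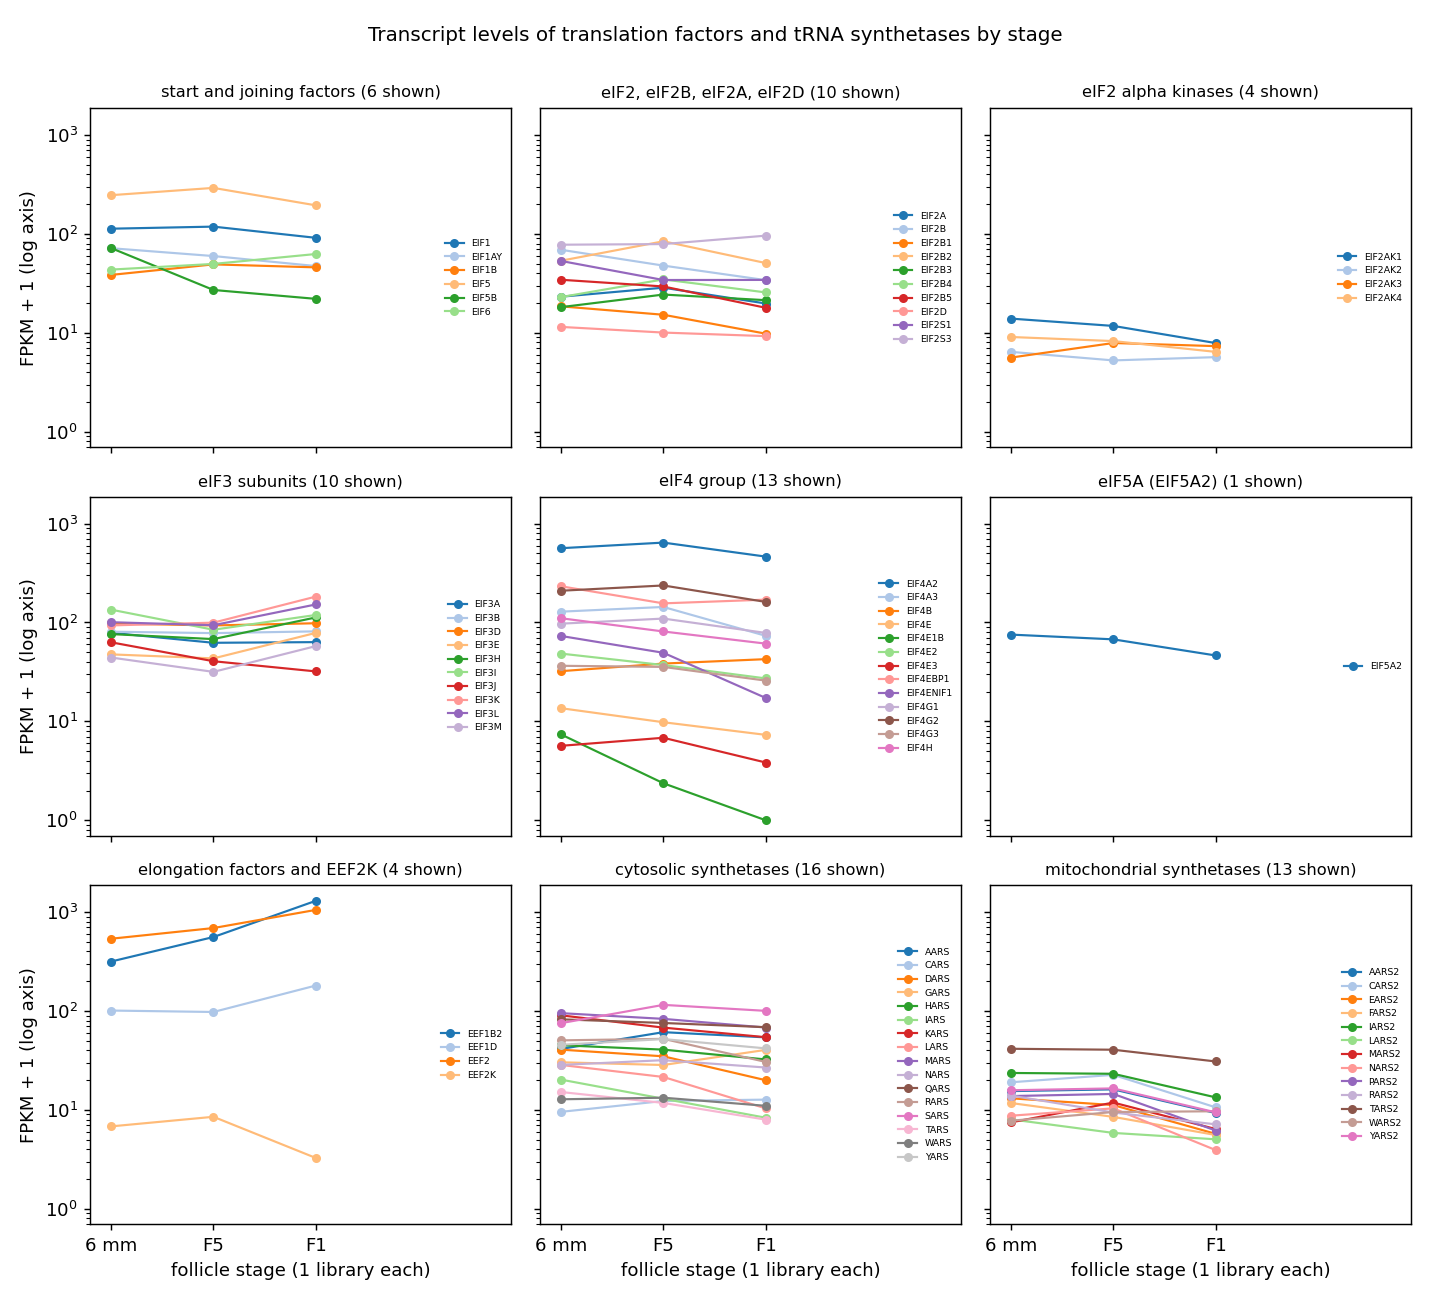
FPKM + 1 on a log axis for the genes shown in each class in the 3 libraries, 1 panel per class and 1 line per gene. EEF1B2 and EEF2 climb to 1301 and 1052 FPKM in F1, eIF3 subunits part from each other after F5, and EIF4E1B reaches 0 in F1.

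Between 6 mm and F5 the set was close to the general background or quieter. On the scale of log2(FPKM + 1), 0 of 78 members reached 2-fold above 6 mm and 2 (2.56%) reached 2-fold below, against 7.64% and 10.8% of all 12611 genes tested. At 1.5-fold, 5 members (6.41%) were higher and 6 (7.69%) lower, against 14.7% and 22.7%. Members below 0 were 56.4%, beside 58.6% of all genes, and the median difference was -0.06 for members and -0.13 for all genes.

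F1 against F5 showed more movement, in a comparison where most genes of the library were lower in F1. Of the members, 1 (1.28%) was at least 2-fold higher in F1 and 7 (8.97%) lower, against 5.09% and 22.9% of 11758 genes. At 1.5-fold, 8 (10.3%) were higher and 22 (28.2%) lower, against 8.95% and 46.1%. The share below 0 was 73.1% for members and 78.1% for all genes, with medians of -0.37 and -0.53. This split depends on how libraries are scaled: after median-ratio scaling, which brings the median of all genes from -0.53 to 0.02, 10 members were at least 2-fold higher and 1 lower. The counts of all genes turned as well, from 599 higher and 2697 lower to 1272 and 1369. Over the whole interval, F1 against 6 mm, 1 member (1.28%) was 2-fold higher and 12 (15.4%) lower, against 7.45% and 32.8% of 12482 genes. At 1.5-fold these were 6 (7.69%) and 33 (42.3%), against 11.4% and 52.8%, and 71.8% of members lay below 0, against 76.4% of genes, with a median of -0.44 beside -0.64. Median-ratio scaling turned that split to 16 higher and 2 lower. Among all genes it turned 930 higher and 4100 lower to 1920 and 2156.

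By their order over the 3 libraries, 31 members (39.7%) were highest in 6 mm and lowest in F1, against 45.7% of 12812 genes. A steady climb from 6 mm to F1 was seen in 8 members (10.3%, against 9.31%), a peak in F5 in 26 (33.3%, against 32.2%) and a trough in F5 in 13 (16.7%, against 11.9%). These shares lay near those of all genes.

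**Figure D2:**
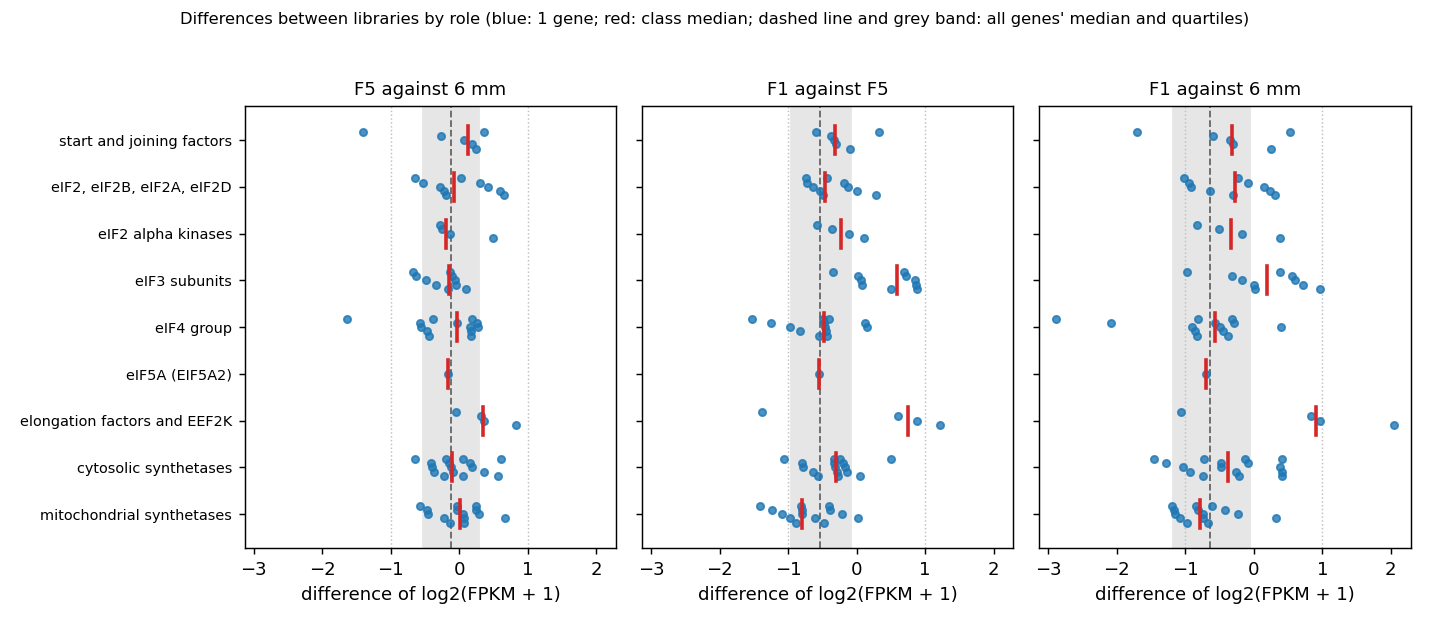
Difference of log2(FPKM + 1) for each member (blue) by class in the 3 comparisons, with the class median in red and the median and quartiles of all tested genes as a dashed line and grey band. In F1 against F5 the medians of eIF3 (0.60) and elongation (0.75) lie above the band of all genes, which runs from -0.95 to -0.08, and that of the mitochondrial synthetases (-0.79) lies inside it.

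Start and joining factors had a median of 0.13 in F5 against 6 mm, which turned negative (-0.07) under a scaling of libraries to 1 common sum. It also turned negative with that sum taken without the 10 most abundant genes. Of the 6 genes, 1 was at least 2-fold lower in F5 and in F1 than in 6 mm, against 10.8% and 32.8% of all genes. EIF5B, the GTPase that joins the large ribosomal subunit (ENSGALG00000016764, chromosome 1, 131925076 to 131944008, in a genome build that the sources used here do not name), had 71.1 FPKM in 6 mm, 26.2 in F5 and 21.1 in F1. It was 2.72-fold lower in F5 (2.57 to 2.88) and 3.37-fold lower in F1 (3.17 to 3.59) than in 6 mm. The first value stayed on the same side of 0 under all 9 alternatives of pseudocount, filter and scaling. EIF5, which triggers GTP hydrolysis on eIF2 when the start codon is found, had 246, 291 and 194 FPKM. The level of EIF5 relative to EIF5B was thus 3.46, 11.1 and 9.19 over the 3 stages.

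The scanning factors moved less. EIF1, which keeps the small subunit from stopping at wrong codons, had 112, 118 and 90.4 FPKM. Its partner EIF1A is listed under the name EIF1AY, which RefSeq gives as a synonym of EIF1AX, and had 70.8, 58.8 and 46.4. EIF1B, a close copy of EIF1, was lowest in 6 mm at 37.5, with 48.3 in F5 and 45.0 in F1. EIF6, which holds the large subunit apart until it is ready, was the one member of this class to climb at both steps, with 42.6, 48.8 and 61.7 FPKM and a ratio of 1.45 between F1 and 6 mm (1.36 to 1.55). The EIF1 entry spans a keratin cluster on the other strand, including KRT19 at 91.0, 3.17 and 0.354 FPKM. The sources used here do not say whether reads were counted by strand, and the part of keratin reads in EIF1 was not tested.

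In the group of eIF2, the 3 subunits took different courses. EIF2S1, the alpha subunit that stress kinases phosphorylate, had 52.4, 33.2 and 33.3 FPKM and was 1.58-fold lower in F5 than in 6 mm (1.43 to 1.74). The beta subunit, listed as EIF2B with the RefSeq symbol EIF2S2, had 68.2, 46.9 and 33.1 and was 2.06-fold lower in F1 than in 6 mm (1.87 to 2.26). The gamma subunit EIF2S3, which binds GTP and the initiator tRNA, had 76.9, 78.0 and 95.2. Since the protein complex holds 1 copy of each, the ratios were also taken: alpha over gamma was 0.681 in 6 mm, 0.426 in F5 and 0.35003 in F1, and beta over gamma 0.887, 0.601 and 0.348. These ratios are within a library and do not change with its scaling.

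The exchange factor eIF2B, which reloads eIF2 with GTP, split as well. Its subunits beta and delta peaked in F5: EIF2B2 had 52.6, 83.3 and 49.8 FPKM, 1.58-fold higher in F5 than in 6 mm (1.46 to 1.71), and EIF2B4 had 22.0, 33.7 and 24.6, 1.53-fold higher (1.39 to 1.69). EIF2B3, the gamma subunit, followed the same order with 17.2, 23.4 and 20.4. EIF2B1, the alpha subunit, and EIF2B5, the catalytic epsilon subunit, instead stepped down, from 17.5 to 14.3 and 8.81 and from 33.4 to 28.5 and 16.9. EIF2A and EIF2D, which can deliver tRNA without eIF2, had 22.2, 27.6 and 18.8 and 10.5, 9.07 and 8.27. The class median of -0.46 in F1 against F5 became positive under median-ratio, upper-quartile and median-centred scaling.

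**Figure D3:**
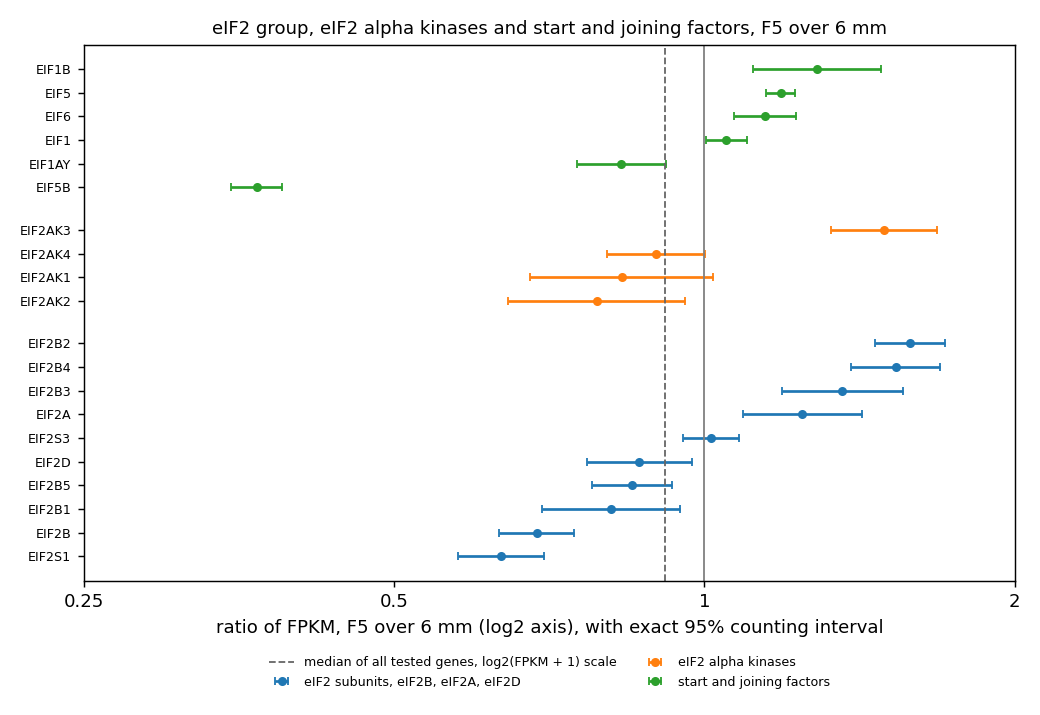
Ratio of FPKM in F5 over 6 mm (log2 axis) with exact 95% counting intervals for start and joining factors, kinases of eIF2 alpha and the eIF2 group; the dashed line is the median of all tested genes. EIF5B stands apart at 2.72-fold lower, the eIF2B subunits EIF2B2 and EIF2B4 are highest in their group at 1.58 and 1.53, and EIF2S1 and EIF2B are lowest.

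The kinases that phosphorylate eIF2 alpha were the least abundant class, with 31.1 FPKM in sum in 6 mm, 29.2 in F5 and 23.3 in F1. EIF2AK3, known as PERK, the sensor of the endoplasmic reticulum, was the one that was higher in F5 than in 6 mm, at 4.62, 6.90 and 6.35 FPKM with a ratio of 1.49 (1.33 to 1.68). EIF2AK1, the haem-regulated kinase, had 12.9, 10.8 and 6.89, and EIF2AK4, known as GCN2, the sensor of uncharged tRNA, 8.09, 7.26 and 5.43. EIF2AK2, known as PKR, a sensor of double-stranded RNA, ranged from 4.27 to 5.43. None of the 4 reached 2-fold in any comparison. Among all genes, 10.8% were at least 2-fold lower in F5 against 6 mm, 22.9% in F1 against F5 and 32.8% in F1 against 6 mm. Those at least 2-fold higher were 7.64%, 5.09% and 7.45% in the same order. With 4 genes, a count of 0 says little beside these shares.

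Around this control point, a list of the integrated stress and amino acid response was measured too. In F5 against 6 mm, 0 of 14 tested genes were 2-fold higher and 1 lower, against 7.64% and 10.8% of all genes. In F1 against F5, 1 of 13 was higher and 3 were lower, against 5.09% and 22.9%, with a median of -0.51 that sits by the -0.53 of all genes. ATF4, the transcription factor whose translation rises when eIF2 alpha is phosphorylated, peaked in F5 with 204, 410 and 260 FPKM, a ratio of 2.004 between F5 and 6 mm (1.93 to 2.08). On the scale of log2(FPKM + 1), used for the counts, its difference of 0.9991 fell just short of 2-fold. Its target ASNS, asparagine synthetase, had 5.06, 8.27 and 6.71. IMPACT, which restrains GCN2, had 11.4, 4.30 and 2.19, and CEBPB, a partner of ATF4, had 35.7, 19.5 and 1.87. STC2, a secreted glycoprotein of that response, had 1.01, 1.66 and 20.4, so that members of the list differed widely in both directions.

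The subunits of eIF3, the largest initiation factor, were lower or level in F5 and then mostly higher in F1. In F5 against 6 mm, 9 of 10 were below 0 with a median of -0.15, beside 58.6% of all genes and a near median of -0.13. In F1 against F5, 9 of 10 were above 0 with a median of 0.60, where 78.1% of all genes were below 0 with a median of -0.53. At 1.5-fold, 5 were higher and 0 lower, against 8.95% and 46.1% of all genes. The eIF3 median lay between 0.48 and 1.21 under the 9 alternatives. For F1 against 6 mm it was 0.20 and turned to -0.12 under a scaling to 1 common sum.

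The higher level in F1 was uneven within the complex. EIF3M had 43.3, 30.7 and 56.7 FPKM, 1.85-fold higher in F1 than in F5 (1.67 to 2.05), and EIF3K had 92.4, 98.6 and 182, 1.84-fold higher (1.75 to 1.94). EIF3E had 46.6, 42.3 and 77.5, 1.83-fold higher (1.69 to 1.99). EIF3H, with 75.3, 66.9 and 112, and EIF3L, with 99.7, 92.8 and 151, were 1.67-fold (1.55 to 1.79) and 1.63-fold higher (1.52 to 1.75). Their differences on the log2 scale spanned 0.70 to 0.88. Budding yeast lacks these 5 subunits, and it also lacks EIF3D, which did not share their higher level in F1.

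EIF3A and EIF3B differed little between F5 and F1, and no member was named EIF3C or EIF3G. EIF3A had 77.7, 61.3 and 62.3 FPKM and EIF3B 79.7, 77.1 and 80.4, with ratios of 1.02 (0.975 to 1.06) and 1.04 (0.992 to 1.10) whose counting intervals include 1. EIF3D, which can bind the cap itself, had 96.7, 92.4 and 97.3, and its ratio of 1.05 has a counting interval that includes 1 too. EIF3I, a partner of EIF3B, had 134, 83.5 and 118, so its 1.42-fold higher level in F1 (1.33 to 1.51) followed a 1.60-fold lower level in F5 (1.51 to 1.71). Together EIF3A, EIF3B, EIF3D and EIF3I spanned 0.02 to 0.50 on the log2 scale. This grouping was made after the values were seen and has no test.

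EIF3J, a loosely bound subunit that is not needed for the core complex, went the other way, with 62.1, 39.6 and 31.0 FPKM and a level 2.002-fold lower in F1 than in 6 mm (1.84 to 2.18). The ratio of EIF3K to EIF3J was 1.49, 2.49 and 5.86 over the 3 stages. The subunit EIF3F carries no gene name in the files and was not caught by the rule. The row that the KEGG column names EIF3F had 15.0, 14.0 and 29.9 FPKM, 2.14-fold higher in F1 than in F5 (1.91 to 2.40). In mammals, the messages of EIF3E, EIF3F and EIF3H, and those of elongation factors and ribosomal proteins, begin with a pyrimidine tract through which mTOR controls their translation; start-site sequence was not analysed here.

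Of the eIF4 group, which recognises the cap and unwinds the leader of the message, 11 of 13 genes were below 0 in F1 against F5, beside 78.1% of all genes. The median of -0.47 was near that of all genes and became positive under median-ratio, upper-quartile and median-centred scaling. EIF4A2, an RNA helicase, was its most abundant gene at 563, 641 and 462 FPKM. The scaffold EIF4G1 had 96.3, 109 and 77.4, so that EIF4A2 stood to EIF4G1 at 5.85, 5.91 and 5.97, nearly the same in each library. EIF4G2, a related scaffold that does not bind the cap protein, had 208, 236 and 160.4. EIF4B, which helps the helicase, was alone in the group in climbing at both steps, with 31.2, 37.4 and 41.6, while EIF4H, a smaller relative, had 109, 80.1 and 60.1.

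The cap-binding protein EIF4E had 12.6, 8.81 and 6.31 FPKM, 1.998-fold lower in F1 than in 6 mm (1.78 to 2.25). Its inhibitor EIF4EBP1, which mTOR inactivates, had a far higher FPKM with 231, 155 and 169. In reads the gap was smaller, with 2690, 1708 and 1857 for EIF4EBP1 and 906, 600 and 428 for EIF4E. The FPKM values rest on recovered lengths of 779 bases for EIF4EBP1 and 4817 for EIF4E. The ratio of EIF4EBP1 alone to EIF4E was 18.4 in 6 mm, 17.6 in F5 and 26.8 in F1. A row without a gene name, which the KEGG column calls EIF4EBP2, a second such inhibitor, peaked in F5 at 94.1 against 39.7 in 6 mm and 46.3 in F1. It is not part of that ratio, so the ratio does not give the course of both inhibitors together. EIF4E2, a cap-binding relative that represses messages, had 47.5, 36.1 and 26.2, and EIF4E3 had 4.66, 5.83 and 2.84.

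EIF4ENIF1, known as 4E-T, which binds eIF4E and takes messages out of translation into P-bodies, was among the members with the widest differences between F5 and F1. On the scale of log2(FPKM + 1) its difference of -1.52 was the widest, but by the ratio of FPKM the less abundant EEF2K (3.32-fold) and NARS2 (3.21-fold) were further apart, and EIF4E1B went to 0. EIF4ENIF1 had 72.1, 48.4 and 16.2 FPKM (ENSGALG00000006898, chromosome 15, 8980618 to 9000207). It was 2.98-fold lower in F1 than in F5 (2.74 to 3.25) and 4.44-fold lower than in 6 mm (4.09 to 4.82), and no alternative turned these differences. EIF4A3, a helicase of the exon junction complex rather than of initiation, had 128, 143 and 72.3, 1.97-fold lower in F1 than in F5 (1.85 to 2.10).

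EIF4E1B, a form of eIF4E that is largely restricted to oocytes in vertebrates such as frogs and mice, had 6.40, 1.37 and 0 FPKM from 69, 14 and 0 reads (ENSGALG00000026037, chromosome 13, 9669178 to 9670459). It was 4.67-fold lower in F5 than in 6 mm (2.60 to 8.98). With its F1 count set to a floor of 3 reads it was 21.7-fold lower in F1 than in 6 mm, and the exact lower limit from 0 reads was 17.2-fold. Markers of oocyte and germ cells moved with it: their summed level was 238, 46.8 and 1.04, none of the 7 was at 0 in any library, and ZP2 alone had 183, 33.4 and 0.443 FPKM. In F1 these markers rested on few reads, from 1 for DAZL, DDX4 and NOBOX to 16 for ZP2. Lower levels at each step were not particular to these markers. Sums for theca and smooth muscle, endothelium, leukocytes, red cells and surface epithelium were also lower at each step, while the granulosa sum was higher. Surface epithelium had 154, 28.0 and 6.09, and AMH of the granulosa list had 384, 18.2 and 0.779. The part of any cell type in the level of EIF4E1B was not tested. Elsewhere in the set no member had such a course: the next largest difference between F1 and 6 mm was that of EIF4ENIF1 among those lower in F1.

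Among 21 regulators of the cap, of mTOR and of the poly-A tail, the median was 0.06 in F5 against 6 mm and -0.36 in F1 against F5. MTOR itself had 9.93, 9.94 and 8.45 FPKM. SESN2, a leucine sensor upstream of mTOR, had 20.3, 421.5 and 526.5, 20.7-fold higher in F5 than in 6 mm (18.4 to 23.5). LARP1, which binds messages with a pyrimidine tract, had 3.19, 13.1 and 32.6, and the poly-A binding protein PABPC1 had 561, 1565 and 1322. PDCD4, which blocks the helicase eIF4A, went from 42.1 to 17.3 and 14.7, and LAMTOR3, a part of the anchor of mTOR on lysosomes, from 64.6 and 78.7 to 28.0. In F5 against 6 mm 3 of the 21 were 2-fold higher and 1 lower, beside 7.64% and 10.8% of all genes. Between F5 and F1, 1 was higher in F1 and 1 lower, beside 5.09% and 22.9%.

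The eIF5A gene covered by the names, EIF5A2, which eases peptide bonds between difficult residues, had 74.4, 66.5 and 45.4 FPKM. Its level in F1 was 1.64-fold lower than in 6 mm (1.48 to 1.82). Only under median-ratio scaling did that difference turn, to 0.03 on the log2 scale.

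The elongation genes were the class with the highest medians. EEF1B2, the beta subunit of the exchange factor that reloads eEF1A with GTP, had 315 FPKM in 6 mm, 559 in F5 and 1301 in F1 (ENSGALG00000008590, chromosome 7, 12072509 to 12076665). It was 1.77-fold higher in F5 than in 6 mm (1.72 to 1.83), 2.33-fold higher in F1 than in F5 (2.27 to 2.38) and 4.13-fold higher over the whole interval (4.01 to 4.24). It was the 1 member at least 2-fold higher in F1, in both comparisons. EEF2, the translocase, had 537, 689 and 1052 (ENSGALG00000001830, chromosome 28, 1438607 to 1446530), with ratios of 1.28 (1.26 to 1.31) and 1.53 (1.505 to 1.55) at the successive steps.

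EEF1D, the delta subunit of the same exchange factor, had 100.1, 96.8 and 180.04 FPKM, gave a ratio of F5 over 6 mm of 0.967 (0.8995 to 1.04), and was 1.86-fold higher in F1 than in F5 (1.74 to 1.99). The ratio of EEF1B2 to EEF1D therefore went from 3.15 in 6 mm to 5.78 in F5 and 7.22 in F1. The abundant factor eEF1A, which carries tRNAs to the ribosome, is named EF1A in the files and was not caught by the rule. Its main row, EEF1A1 by the KEGG column, had 2385, 1698 and 3604 FPKM, more than any member in each library, and was 2.12-fold higher in F1 than in F5 (2.10 to 2.15). Unlike EEF1B2 and EEF2 it was lower in F5 than in 6 mm. A further EF1A row held 9, 4 and 1 reads.

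EEF2K, the kinase that inhibits EEF2, parted from its substrate between F5 and F1. It had 5.81, 7.52 and 2.26 FPKM from 204, 250 and 75 reads and was 3.32-fold lower in F1 than in F5 (2.56 to 4.36). The ratio of EEF2 to EEF2K was 92.3, 91.6 and 464 over the 3 stages, nearly the same in 6 mm and F5, where both genes were higher in F5. The class median, EEF2K included, was 0.34 in F5 against 6 mm and 0.75 in F1 against F5, with ranges of 0.15 to 0.47 and 0.63 to 1.37 under the alternatives, and no gene other than EEF1D in the step from 6 mm to F5 turned its sign.

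**Figure D4:**
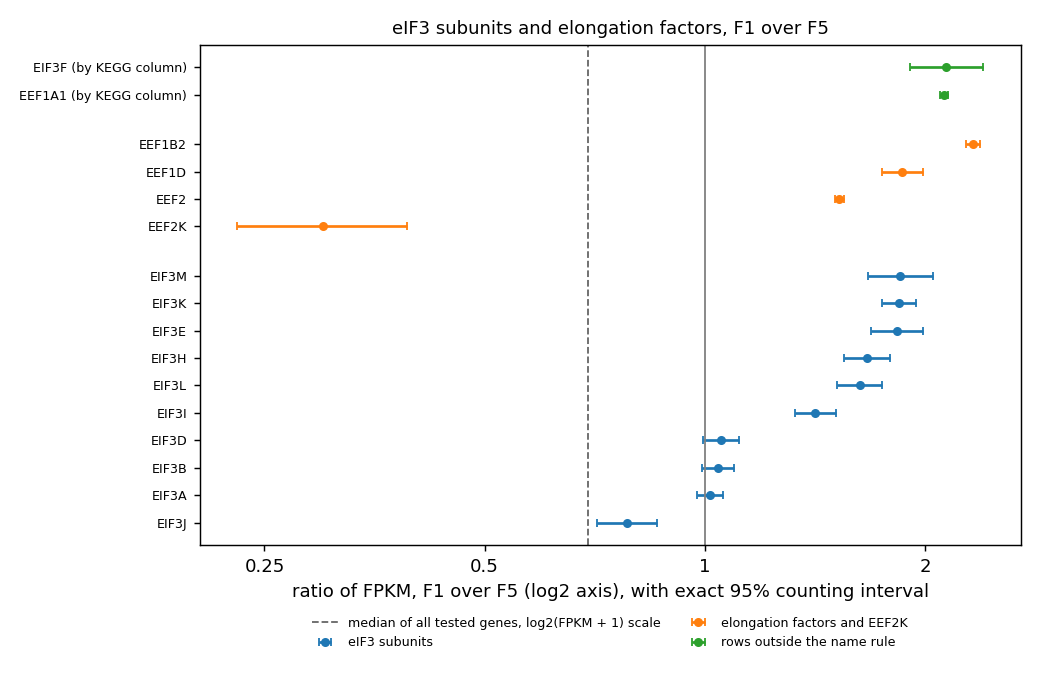
Ratio of FPKM in F1 over F5 (log2 axis) with exact 95% counting intervals for eIF3 subunits, elongation genes and the rows that the KEGG column calls EEF1A1 and EIF3F; the dashed line is the median of all tested genes. EIF3A, EIF3B and EIF3D sit near 1, 5 subunits from EIF3L to EIF3M between 1.63 and 1.85, and EEF2K alone lies left of the dashed line.

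Ribosomal protein genes, whose products form the particle these factors act on, were measured as a list of 64. They took 1.77% of reads in 6 mm, 2.06% in F5 and 3.56% in F1. In F1 against F5, 62 of 63 tested were above 0 with a median of 0.72, and 6 were 2-fold higher and 1 lower, against 5.09% and 22.9% of all genes. RPLP0, of the stalk on which elongation factors dock, had 721, 1406 and 3421 FPKM, and RPL6 had 550, 481 and 1154. Ribosomal proteins had quartiles of 0.58 and 0.87 and ranged from -1.01, the 1 gene below 0, to 1.28. Of the 3 elongation factors, EEF2 at 0.61 lay between these quartiles, and EEF1D at 0.89 and EEF1B2 at 1.22 lay above the upper one. Of factors that build ribosomes, 17 of 20 tested were below 0 with a median of -0.64, which lies near all genes, with 78.1% below 0 and a median of -0.53. They included NOP58, of the particle that modifies ribosomal RNA, at 46.9, 42.0 and 16.8, and WDR12, which acts in large-subunit assembly, at 29.2, 26.5 and 11.46. The 3 genes of this list above 0 were RRP12, an export factor of ribosomal subunits, at 2.33, 2.22 and 15.95, NPM1, a nucleolar chaperone, at 366, 403 and 761, and NOP2, which methylates ribosomal RNA, at 18.7, 18.3 and 23.2.

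At the end of the cycle, release and recycling factors had 1 of 8 genes above 0 in each comparison, with medians of -0.37 in F5 against 6 mm and -0.33 in F1 against F5. Among all genes 58.6% and 78.1% were below 0, with medians of -0.13 and -0.53. In the second comparison the list lay above the general level by its median, though 7 of its 8 genes were below 0. There 1 of the 8 was at least 1.5-fold lower and 1 at least 2-fold lower, against 46.1% and 22.9% of all genes. For F1 against 6 mm its median was -0.78, beside -0.64 for all genes, and 7 of 8 were at least 1.5-fold lower, against 52.8%. DENR, which removes tRNA from used subunits, had the widest range of the list, with 75.9, 144 and 23.6 FPKM, 6.10-fold apart between F5 and F1. The release factor ETF1 had 36.8, 29.4 and 42.2, and ABCE1, which splits the ribosome, had 36.2, 23.4 and 18.7. HBS1L, a rescue factor of stalled ribosomes, stepped from 26.95 to 16.15 and 12.5.

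Cytosolic synthetases, each of which joins 1 amino acid to its tRNAs, had a median of -0.30 in F1 against F5, with 14 of 16 below 0, 4 at least 1.5-fold lower and 1 at least 2-fold lower, against 78.1%, 46.1% and 22.9% of all genes. That median became positive under median-ratio, upper-quartile and median-centred scaling. The largest differences were those of LARS, the leucyl enzyme and a leucine sensor of the mTOR pathway, with 27.5, 20.5 and 9.35 FPKM (ENSGALG00000007494, chromosome 13, 17255691 to 17279340). It was 2.20-fold lower in F1 than in F5 (1.97 to 2.45) and 2.94-fold lower than in 6 mm (2.66 to 3.26). IARS, for isoleucine, had 19.3, 11.98 and 7.33, 2.63-fold lower in F1 than in 6 mm (2.39 to 2.89), and DARS, for aspartate, had 39.7, 33.8 and 19.0, 2.09-fold lower (1.89 to 2.32). All 3 reside in mammals in the multisynthetase complex.

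Other enzymes of that complex differed less over the same interval. MARS, for methionine, had 94.2, 82.3 and 67.0 FPKM, and RARS, for arginine, 49.5, 51.3 and 29.5. KARS and QARS, for lysine and glutamine, had 89.5, 66.9 and 53.3 and 81.4, 74.7 and 67.6. EPRS, the fused enzyme for glutamate and proline, does not match the name rule and had 31.8, 26.2 and 25.4. The scaffold AIMP1 had 47.9, 24.6 and 13.3, 3.61-fold apart between 6 mm and F1, and AIMP2 had 32.3, 32.3 and 19.95.

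A few cytosolic enzymes stood higher in F1 than in 6 mm, and of these SARS, AARS and CARS were higher in F5 as well. SARS, the seryl enzyme, peaked in F5 with 74.3, 114 and 99.4 FPKM, 1.54-fold higher there than in 6 mm (1.44 to 1.64), and AARS, for alanine, followed it with 40.3, 60.1 and 53.1 (1.49-fold, 1.40 to 1.59). CARS, for cysteine, had 8.56, 11.3 and 11.7. GARS, for glycine, had 29.3 and 27.5 and was then 1.44-fold higher in F1 at 39.5 (1.32 to 1.57). In F1, SARS had the highest level of all synthetases and TARS, for threonine, at 6.97, the lowest of the cytosolic ones.

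In F5 against 6 mm, 7 of 14 mitochondrial synthetases lay on either side of 0, with a median of 0.02. Of all genes 58.6% were below 0, with a median of -0.13. The class median for this step ran from -0.18 to 0.14 under the alternatives and turned negative under 2 of them. Most of these synthetases were then lower in F1. In F1 against F5, 13 of 14 were below 0, 9 at least 1.5-fold and 3 at least 2-fold lower, with a median of -0.79. Over all genes 78.1% were below 0, 46.1% at least 1.5-fold and 22.9% at least 2-fold lower, with a median of -0.53, so the count at 2-fold was no more than the background. In F1 against F5 the class median stayed negative under the 9 alternatives, from -0.90 to -0.22, with up to 5 of 14 above 0. Their share of reads was 0.0485% in 6 mm, 0.0478% in F5 and 0.0282% in F1. Their levels were also the lowest of the set beside the eIF2 alpha kinases, with medians of 12.5, 10.5 and 6.22 FPKM, so that counting intervals are wider.

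NARS2, for asparagine, had 7.74, 9.37 and 2.92 FPKM from 244, 280 and 87 reads and was 3.21-fold lower in F1 than in F5 (2.51 to 4.13). PARS2, for proline, had 12.8, 13.5 and 5.19, 2.61-fold lower (2.05 to 3.33), and CARS2, for cysteine, 18.0, 21.6 and 9.61, 2.25-fold lower (1.93 to 2.63). For these 3 the F1 value lay below both others. MARS2, for methionine, peaked in F5 with 6.48, 10.9 and 5.403, 1.68-fold above 6 mm (1.40 to 2.02). EARS2 and FARS2, for glutamate and phenylalanine, stepped down throughout, from 12.1 to 10.2 and 4.73 and from 10.7 to 7.51 and 4.57.

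TARS2, for threonine, was the most abundant at 40.5, 39.6 and 29.9 FPKM, followed by IARS2 at 22.6, 22.2 and 12.4. RARS2, for arginine, was 1.54-fold lower in F5 than in 6 mm (1.29 to 1.84) and had 6.14 FPKM in F1. WARS2, for tryptophan, was the 1 enzyme not lower in F1 than in F5, at 6.77, 8.52 and 8.69, a ratio of 1.02 whose counting interval includes 1 (0.790 to 1.32). Of the others, AARS2, LARS2 and YARS2 ranged from 7.03 to 14.8 FPKM in 6 mm and from 4.05 to 8.45 in F1.

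Set beside each other for the 11 amino acids with an enzyme in both classes, the cytosolic enzyme was more abundant in all 3 libraries for 8. The mitochondrial enzyme had the lower difference for 6 of 11 in F1 against F5, and for 5 of 11 in each of the other comparisons. Pairs were thus split almost evenly. Of 11 further factors of mitochondrial translation, all 11 were below 0 in F1 against F5, with a median of -0.60, 0 at least 2-fold higher and 2 lower. All genes lay near this, with 78.1% below 0, a median of -0.53 and 22.9% at least 2-fold lower. MRRF, which recycles the mitochondrial ribosome, had 31.8, 21.7 and 9.16 FPKM, and its release factor MTRF1L had 12.4, 7.22 and 2.95. GFM1, the mitochondrial elongation factor G, had 13.8, 19.5 and 11.52. The 11 synthetases and tRNA-handling partners outside the name rule were also all below 0 in F1 against F5, with a median of -0.57 close to the -0.53 of all genes. PSTK, which prepares selenocysteine on its tRNA, had 22.5, 16.2 and 5.01.

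**Figure D5:**
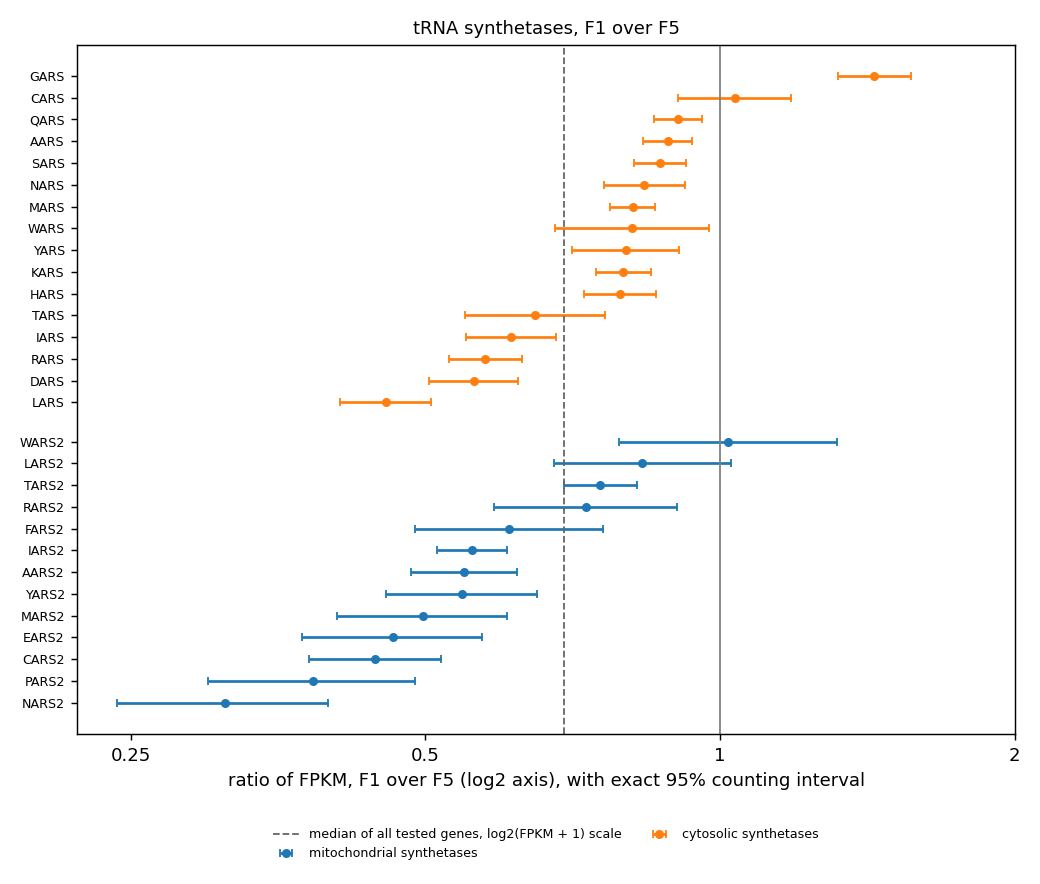
Ratio of FPKM in F1 over F5 (log2 axis) with exact 95% counting intervals for 13 mitochondrial and 16 cytosolic synthetases; the dashed line is the median of all tested genes. GARS is highest at 1.44, LARS is the lowest cytosolic enzyme at 2.20-fold lower, and NARS2, PARS2 and CARS2 are the lowest mitochondrial ones.

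The annotated span of 23 of the 78 members overlapped that of another row. For most the overlap was a small share, often with an unnamed short row. The largest single overlap was that of HARS, for histidine, which shares 19.1% of its span with ZMAT2 on the other strand. EIF1 shares 13.2% with a row without a gene name on the other strand, besides the keratin genes within it. EIF3M shares 10.6% with CCDC73, and EIF2D shares 8.25% with RASSF5. Values of these genes are uncertain for that reason.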

How the data were processed

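Granulosa messenger RNA of 3 stages was sequenced, enriched by poly-A and primed with random hexamers per the labels' protocols. TopHat2 2.0.12 and HTSeq 0.6.1 are named in the submitters' processing notes. The genome build and strand setting are not given in the sources used here. The authors deposited FPKM values for 19309 genes per library, and 2 lines per file without a value were left out. No per-sample column was left unmatched (0). RefSeq symbols or synonyms of the GRCg7b gene table matched 76 of the 78 names.

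Each FPKM value was a whole number of reads over a length and the library's total; over the 17019 genes above 0 the relative deviation from this was at most 1.91e-14. The totals were recovered from these steps, and so were the smallest whole reads per gene, which made up 94.7%, 93.8% and 94.8% of the totals. Exact 95% Poisson and binomial intervals and a floor of 3 reads rest on those reads and cover counting error only. Because recovered reads are the smallest that fit, intervals of single genes can be too wide. By how much was not checked gene by gene.

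No test was possible, as each stage has 1 library. Differences of log2(FPKM + 1), which understate low genes, were taken where either library reached an FPKM of 1 and counted at 2-fold and 1.5-fold. Folds with intervals are ratios of FPKM. Alternatives were pseudocounts of 0.1 and 5, no filter or a filter at 5, 4 other scalings and centring on the median gene. Code was tested on simulated data.

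The members, classes and lists were chosen with earlier results of these data known. Genes named were, per class and comparison, the 3 widest differences at 10 FPKM or more, all members 2-fold different or at 0, the 2 most abundant per class, up to 3 members of each other list, and ATF4, ASNS, MTOR and PABPC1. Further members were named after their values were seen, to account for more of them. The values of 1 mitochondrial synthetase enter the class summaries and are not reported here. Promoter motifs were planned but not analysed here. Computation used Python 3.11.15, numpy 2.4.6, pandas 2.3.3, SciPy 1.17.1 and matplotlib 3.10.9.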

Additional observations from a re-analysis of the deposited data

How the results depend on the processing

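How many members passed 2-fold, and the median of all members, depended on scaling, most of all in F1. In F5 against 6 mm the count of lower members went from 2 to 1 with a pseudocount of 5, and the median of -0.06 became -0.26 with libraries scaled to the same FPKM sum, -0.19 with that sum taken without the 10 most abundant genes, 0.06 after median-ratio scaling and 0.07 after centring on the median gene. In F1 against F5 the 7 lower members became 1 with a pseudocount of 5, 1 after median-ratio or upper-quartile scaling and 0 after centring, and the 1 higher member became 10 under each of these scalings, where the median of -0.37 became 0.22, 0.18 and 0.16. In F1 against 6 mm the 12 lower members became 4 with a pseudocount of 5, 29 with the same FPKM sum, 2 after median-ratio scaling and 3 after upper-quartile scaling or centring. There the 1 higher member became 16, 13 and 15, and the median of -0.44 became -0.75 with the same sum and 0.29, 0.19 and 0.20 under the other 3. These scalings move all genes of a library by 1 factor, or by 1 shift, so they leave the order of members within a library as it is. Counts of all genes moved too. In F1 against F5, 599 higher and 2697 lower became 1272 and 1369 after median-ratio scaling and 1194 and 1408 after upper-quartile scaling. For F1 against 6 mm, 930 and 4100 became 1920 and 2156, then 1715 and 2319, under these scalings in the same order. With the same FPKM sum they became 702 and 5701. Counts of all genes after centring were not made. Class medians of eIF3, elongation and mitochondrial synthetases in F1 against F5 kept their sign under all 9 alternatives. No paired analysis was possible because each stage has 1 library. At these depths EIF4E1B, EEF2K, EIF4E3 and mitochondrial synthetases such as NARS2 and PARS2 rest on the fewest reads in F1.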
